A study of Homo sapiens with 18 samples.

Results

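The EMT splicing regulators examined here are 7 genes, ESRP1, ESRP2, QKI, RBFOX2, MBNL1, MBNL2 and MBNL3, out of 19849 genes measured on 18 Affymetrix U133 Plus 2.0 arrays. They were taken by symbol, and all 7 were present, each read by 1 probe set. QKI was chosen by its measured values, because it moved more than 5-fold in all 3 cell lines but not in the same direction, and the other 6 members were set beside it for their known roles. The EMT values of QKI are therefore given as a description with no test, whereas the other 6 members were tested in a fit of all genes.

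The 3 human non-small cell lung cancer lines were A549, HCC827 and NCI-H358. Parental cells of each line were grown in RPMI1640 medium, and mesenchymal derivatives in the same medium with 2 ng/ml TGFβ, a cytokine that induces EMT. The sample labels give 3 weeks of TGFβ, but by the methods A549 cells received it for 2 to 3 weeks and the other lines for 3 to 5 weeks. TGFβ was left out on the last day in all derivatives. Each of the 6 groups had 3 arrays from separate samples made at the same time, so the spread between them covers neither other inductions of EMT nor other clones. Whole cultures were measured, and fewer cells that express a gene cannot be told apart from less RNA per cell.

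Alternative splicing joins different exons of a gene into its messenger RNA, and RNA-binding proteins near an exon decide whether it is kept or skipped. ESRP1 and ESRP2 are epithelial proteins that favour the epithelial exons of genes such as FGFR2, CD44, CTNND1 and ENAH, and their loss is a known feature of EMT. QKI, RBFOX2 and the muscleblind proteins MBNL1 to MBNL3 also bind introns beside regulated exons, and QKI and RBFOX2 are known to favour exon patterns of mesenchymal cells. ZEB1, a repressor that drives EMT, is known to repress ESRP1. The arrays read the amount of each gene's RNA and not which exons it holds.

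The arrays had median levels of 6.31 to 6.47 on the log2 scale, and arrays of the same group differed by a standard deviation of 0.163 to 0.282 over all genes. The labelled states were borne out by most of their markers. CDH1, the epithelial E-cadherin, fell in all mesenchymal cells, with log2 fold changes of -5.81 (A549), -2.95 (HCC827) and, for NCI-H358, -3.94 (limma adjusted p = 3.39e-15, 1.92e-11 and 6.51e-13), and the epithelial antigen EPCAM fell by 2.69 to 3.03. FN1, CDH2, VIM, SNAI1, SNAI2 and ZEB1 rose in all 3 lines, whereas TWIST1 passed the test in none. ZEB2 rose in HCC827 and NCI-H358 cells but fell in A549 cells (-0.46, limma adjusted p = 0.00325). The cytokeratin genes KRT8 and KRT18 had group means of at least 10.78 everywhere. Of the 7 lung and cytokeratin markers, 5 fell in HCC827 and 5 in NCI-H358 cells (71.4% in each, beside 25% and 19.8% of all genes). In A549 cells 3 fell (42.9%, beside 26.8% of all genes). The lung lineage factor NKX2-1 had group means of 3.68 and 3.90 in A549, against 9.18 and 9.64 (HCC827) or 8.62 and 7.56 (NCI-H358). NAPSA, of alveolar cells, was at 10.87 in parental HCC827 cells and at most 6.16 elsewhere, and SFTPB did not exceed 5.84 in any group mean. Of 8 blood and endothelial markers, PTPRC and CDH5 did not exceed 4.29 in any group mean, and the other 6 reached between 5.31 and 6.20 in some group. Among these, CD14 fell in A549 (-1.36, limma adjusted p = 2.68e-06), PECAM1 (0.41) and KDR (0.43) rose in HCC827 (limma adjusted p = 0.024 and 0.0369), and KDR rose from 4.60 to 6.20 in NCI-H358 cells (limma adjusted p = 3.15e-07). Their part in the results was not tested.

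ESRP1 and ESRP2, the epithelial regulators, fell steeply in HCC827 and NCI-H358 cells and were near the low end of the scale in both states of A549 cells. ESRP1 (Entrez gene 54845) lay at log2 levels of 12.35, 12.15 and 12.08 on the parental HCC827 arrays and at 7.45, 6.96 and 7.32 on the mesenchymal ones. The groups did not overlap, and every mesenchymal array was over 4 log2 units below every parental array. The decrease was 30.9-fold, or -4.95 ± 0.114 (SE) on the log2 scale (limma adjusted p = 1.74e-15). ESRP1 in NCI-H358 cells went from 12.06, 12.03 and 12.10 to 4.89, 4.92 and 4.77. This log2 fold change of -7.20 (limma adjusted p = 1.01e-16), a 147-fold decrease, was the lowest of all 19849 genes in that line. In A549 cells ESRP1 read 3.54, 3.58 and 3.46 in parental and 3.46, 3.47 and 3.78 in mesenchymal cells. The groups overlapped at about percentile 10.8 of all genes, and the log2 fold change was 0.041 (95% interval -0.20 to 0.28, limma adjusted p = 0.81).

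ESRP2 (Entrez gene 80004), the paralogue of ESRP1, had parental HCC827 levels of 9.47, 9.07 and 9.26 and mesenchymal levels of 5.13, 5.02 and 5.23. It fell 17.6-fold, or -4.14 ± 0.177 (SE) on the log2 scale (limma adjusted p = 3.94e-12). Its NCI-H358 values were 7.76, 7.91 and 7.98 before and 4.56, 4.60 and 3.95 after EMT. All parental arrays were again above all mesenchymal ones, and the decrease was 11.4-fold (log2 fold change -3.52, limma adjusted p = 4.02e-11). The A549 values were 3.95, 3.32 and 3.77 in parental and 3.51, 3.95 and 3.81 in mesenchymal cells. These overlapped, with a log2 fold change of 0.076 (95% interval -0.30 to 0.45, limma adjusted p = 0.772).

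ESRP1 fell further in NCI-H358 than in HCC827 cells, with a difference in change of -2.25 (95% interval -2.59 to -1.91, limma adjusted p = 8.95e-09). For ESRP2 the fall was smaller in NCI-H358 than in HCC827 by 0.62, and that difference missed the threshold (95% interval 0.092 to 1.15, limma adjusted p = 0.0615). It passed with an intensity trend in the fit and when A549 parental replicate 2, HCC827 parental replicate 2 or NCI-H358 mesenchymal replicate 3 was left out (lowest adjusted p = 0.00722, the last). ESRP2 means went from 9.27 to 5.13 in HCC827 and from 7.88 to 4.37 in NCI-H358, which was lower in both states. The part of the lower start and low end level of NCI-H358 in this difference was not tested. The measured changes of both genes differed between A549 and the other lines. The differences in change were -4.99 and -7.24 for ESRP1 and -4.21 and -3.59 for ESRP2 in HCC827 and NCI-H358 (limma adjusted p at most 4.17e-09). At the parental A549 levels (means 3.53 and 3.68), falls of the size seen in the other lines could not be read. These tests therefore cannot tell whether A549 cells responded differently. Differences in change between lines were frequent: 42.2% of all genes differed in their change between HCC827 and A549, 42.8% between NCI-H358 and A549 and 37.9% between NCI-H358 and HCC827.

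**Figure D1:**
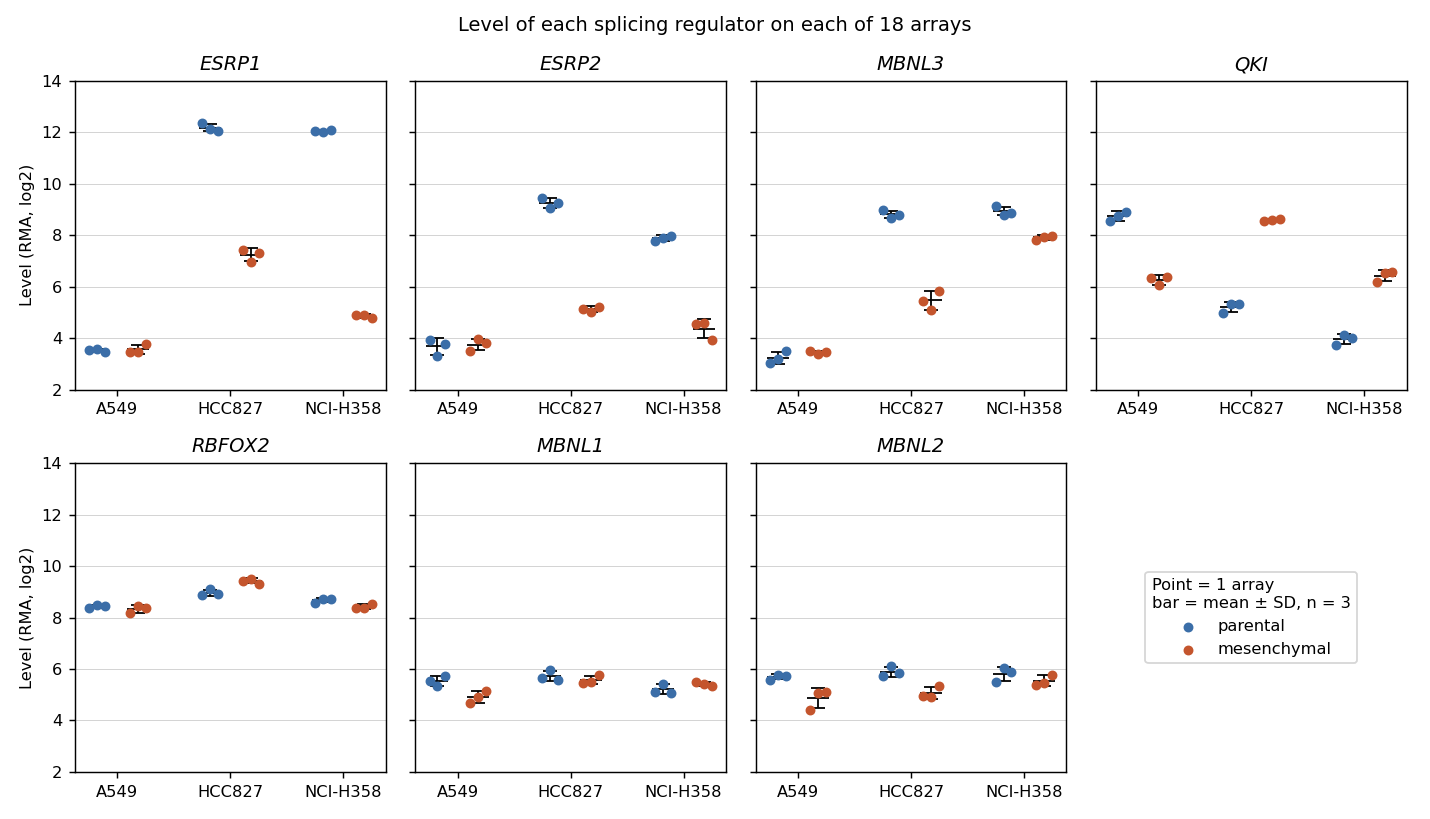
Levels of the 7 splicing regulators (RMA, log2 scale, y axis) in parental (blue) and mesenchymal (orange) cells of the 3 lines (x axis). Each point is 1 array and the bars are the mean ± SD of 3 arrays. ESRP1, ESRP2 and MBNL3 were high in parental HCC827 and NCI-H358 cells and near the low end in A549 cells, whereas QKI was high in parental A549 and mesenchymal HCC827 cells.

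MBNL3, like the ESRP genes, was high in parental HCC827 and NCI-H358 cells and near the low end of the scale in A549 cells. Muscleblind proteins bind YGCY-type motifs in RNA, and MBNL3 (Entrez gene 55796) is the least studied of the family. Its parental HCC827 levels were 8.97, 8.68 and 8.79 and its mesenchymal levels 5.46, 5.12 and 5.85. The groups lay far apart, with a 10.1-fold decrease (-3.34 ± 0.151 (SE) on the log2 scale, limma adjusted p = 8.19e-12). MBNL3 in NCI-H358 cells went from 9.12, 8.81 and 8.89 to 7.82, 7.95 and 7.99, a 2.03-fold decrease without overlap (log2 fold change -1.02, limma adjusted p = 2.67e-05). In A549 cells it read 3.05, 3.19 and 3.51 in parental and 3.49, 3.38 and 3.45 in mesenchymal cells. These values overlapped near percentile 7.58 of all genes (log2 fold change 0.19, 95% interval -0.13 to 0.51, limma adjusted p = 0.347). The decrease of MBNL3 was larger in HCC827 than in NCI-H358 by 2.32 on the log2 scale (95% interval 1.87 to 2.77, limma adjusted p = 1.93e-07), the reverse of the order seen for ESRP1. Its differences in change from A549 were -3.53 in HCC827 and -1.21 in NCI-H358 (limma adjusted p = 7.34e-10 and 0.000185). The A549 levels were too low to show a fall as large as that in HCC827.

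RefSeq start windows (GRCh38.p14, 250 bases before to 50 bases after a start) were examined for MBNL1, MBNL2 and MBNL3, and those of ESRP1, ESRP2, QKI and RBFOX2 were not analysed here. The E-box bound by ZEB and SNAI proteins, CACCTG or CAGGTG on the other strand, was in none of the 9 windows of the 3 genes, and in 20.6% of all 35116 windows. The general E-box CANNTG, which includes the former, was in 6 of the 9 windows and in 68.7% of all. A match is a run of letters and not a known site, and its absence concerns these windows alone. The MBNL3 window that holds a general E-box, in capitals, is shown because MBNL3 changed by more than MBNL1 and MBNL2 in HCC827 and NCI-H358 cells. It lies on the minus strand at chrX:132413559-132413858, and is 1 of 4 windows of the gene. Which of these starts gave the RNA read by the probe set was not examined.
MBNL3 start window: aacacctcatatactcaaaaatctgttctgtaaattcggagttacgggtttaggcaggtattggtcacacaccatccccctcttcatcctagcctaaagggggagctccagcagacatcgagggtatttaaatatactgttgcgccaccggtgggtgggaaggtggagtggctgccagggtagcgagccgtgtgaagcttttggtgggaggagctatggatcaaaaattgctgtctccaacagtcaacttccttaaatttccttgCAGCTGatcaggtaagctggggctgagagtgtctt

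QKI (Entrez gene 9444), a STAR-family RNA-binding protein, moved the opposite way in A549 cells. On the parental A549 arrays it read 8.55, 8.77 and 8.93, and on the mesenchymal arrays 6.34, 6.06 and 6.39. The mesenchymal level was thus 5.61-fold lower, a log2 fold change of -2.49. In HCC827 cells QKI read 4.98, 5.34 and 5.33 in parental and 8.57, 8.61 and 8.64 in mesenchymal cells, and was 10.5-fold higher after EMT (log2 fold change 3.39). In NCI-H358 cells the values were 3.74, 4.12 and 4.00 before and 6.20, 6.52 and 6.59 after, 5.59-fold higher (log2 fold change 2.48). Parental and mesenchymal arrays overlapped in no line. These values chose the gene, so no test is given. The member values closest to the 5-fold limit (2.32 on the log2 scale) were the 5.59-fold and 5.61-fold changes of QKI on the inner side and the 2.03-fold change of MBNL3 in NCI-H358 cells on the outer side.

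The 6 group means of QKI formed 4 levels. Parental A549 (8.75 ± 0.19, SD, n = 3) and mesenchymal HCC827 cells (8.61 ± 0.03, SD, n = 3) were highest, and their arrays overlapped. Mesenchymal NCI-H358 (6.44 ± 0.21, SD, n = 3) and mesenchymal A549 cells (6.26 ± 0.18, SD, n = 3) followed, also with overlapping arrays. Parental HCC827 cells (5.22 ± 0.20, SD, n = 3) and parental NCI-H358 cells (3.96 ± 0.19, SD, n = 3) were lower and separate. Before EMT the line with the highest QKI, A549, was the line with the lowest ESRP1, ESRP2 and MBNL3.

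**Figure D2:**
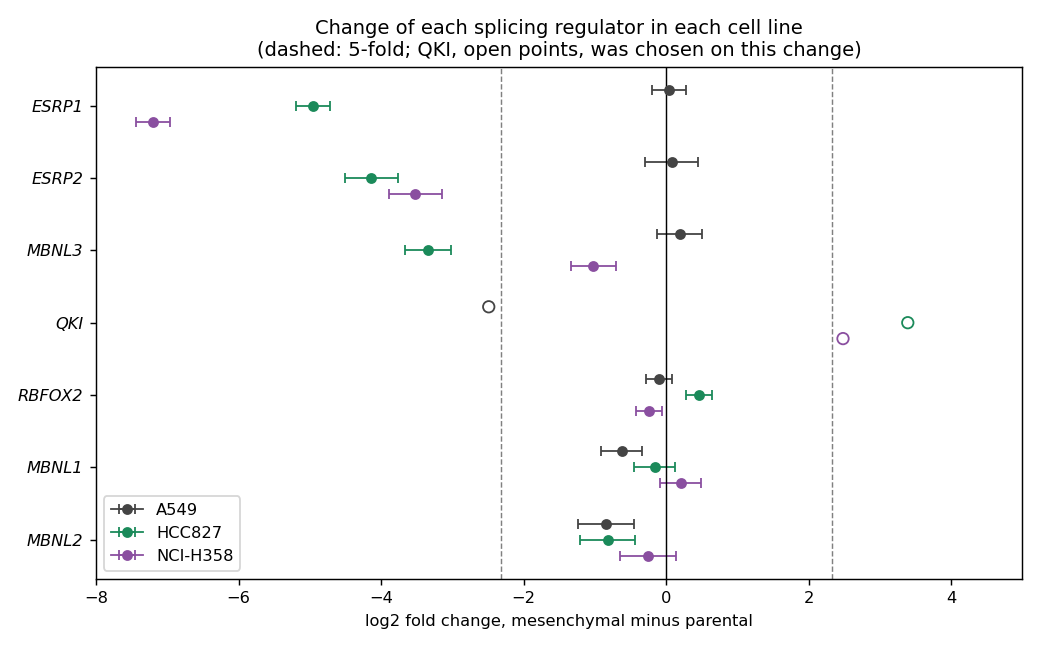
Log2 fold change, mesenchymal minus parental (x axis), of each splicing regulator (y axis) in A549 (grey), HCC827 (green) and NCI-H358 (purple). Filled points carry limma's 95% interval, open points of QKI carry none because QKI was chosen on this change, and dashed lines mark 5-fold. ESRP1 lies at -4.95 and -7.20 in HCC827 and NCI-H358 and at 0.041 in A549, and QKI lies at -2.49 in A549 and at 3.39 and 2.48 in the other lines.

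RBFOX2 (Entrez gene 23543), which binds UGCAUG in introns, had group means between 8.33 and 9.43. In HCC827 cells it rose from 8.87, 9.09 and 8.92 to 9.44, 9.52 and 9.32 without overlap, which is 1.38-fold (0.47 ± 0.0852 (SE) on the log2 scale, limma adjusted p = 2e-04). RBFOX2 in NCI-H358 cells went from 8.58, 8.72 and 8.70 to 8.39, 8.38 and 8.53. This decrease of 1.18-fold passed narrowly (log2 fold change -0.24, limma adjusted p = 0.0345) and did not pass with arrays centred on their medians (adjusted p = 0.0822), by an unmoderated test of the groups compared alone (adjusted p = 0.0616) or without NCI-H358 parental replicate 2 or 3 or mesenchymal replicate 1 or 2 (adjusted p up to 0.112). In A549 cells the arrays overlapped at 8.36 to 8.48 and 8.17 to 8.44 (log2 fold change -0.097, 95% interval -0.28 to 0.084, limma adjusted p = 0.40). The change in HCC827 exceeded that in A549 by 0.56 and that in NCI-H358 by 0.70 (limma adjusted p = 0.00105 and 0.000168), whereas NCI-H358 and A549 differed by -0.14 (95% interval -0.40 to 0.12, adjusted p = 0.396). The RBFOX2 probe set is of the type marked _x_at, whose probes may also bind other sequences, and its signal was not separated from theirs.

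MBNL1 (Entrez gene 4154) and MBNL2 (Entrez gene 10150), the muscleblind proteins held back by expanded CUG repeats in myotonic dystrophy, changed by less than 2-fold. In A549 cells MBNL1 read 5.55, 5.33 and 5.72 in parental and 4.68, 4.91 and 5.13 in mesenchymal cells, and MBNL2 read 5.58, 5.78 and 5.74 against 4.41, 5.05 and 5.12. Neither pair of groups overlapped, and both genes fell, MBNL1 by 0.62 and MBNL2 by 0.84 on the log2 scale (limma adjusted p = 0.00123 for each). By an unmoderated test of the groups compared alone neither passed (adjusted p = 0.0594 and 0.0596). MBNL2 also fell in HCC827 cells, from 5.72, 6.12 and 5.84 to 4.95, 4.92 and 5.34 (log2 fold change -0.82, limma adjusted p = 0.00127). In NCI-H358 cells its log2 fold change was -0.25 (95% interval -0.64 to 0.14, limma adjusted p = 0.318). MBNL1 overlapped between states in HCC827 cells (-0.16, limma adjusted p = 0.389) and in NCI-H358 cells (0.20, limma adjusted p = 0.275). Of the differences between lines in these 2 genes, that of MBNL1 between NCI-H358 and A549 passed with all arrays, at 0.83 (limma adjusted p = 0.00216). That of MBNL1 between HCC827 and A549 missed with all arrays (adjusted p = 0.065) and passed when A549 parental replicate 2, A549 mesenchymal replicate 3 or HCC827 parental replicate 2 was left out (adjusted p down to 0.0248). For MBNL2, NCI-H358 minus A549 (0.0831 with all arrays) passed without A549 mesenchymal replicate 3 or NCI-H358 parental replicate 2 (adjusted p = 0.0434 and 0.0483), and NCI-H358 minus HCC827 (0.102 with all arrays) passed without A549 mesenchymal replicate 1 or HCC827 mesenchymal replicate 3 (adjusted p = 0.0478 and 0.049). The changes of MBNL2 in HCC827 and A549 differed by 0.017 (95% interval -0.53 to 0.57, adjusted p = 0.969). Both genes were read by probe sets of low to middling signal, with group means between percentiles 27.8 and 42.7 of all genes, and other probe sets of these genes were not analysed here.

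Of the 6 tested members, limma called 0 higher and 2 lower (MBNL1 and MBNL2) in A549 cells at an adjusted p under 0.05, against 16.6% and 26.8% of all genes. The count of higher members in A549 was 0 at an unadjusted p under 0.05 and by an unmoderated test of the groups compared alone as well. In HCC827 cells 1 was higher (RBFOX2) and 4 lower (ESRP1, ESRP2, MBNL2 and MBNL3), against 20.8% and 25% of all genes. In NCI-H358 cells 0 were higher, also at an unadjusted p under 0.05 and by an unmoderated test of the groups compared alone, and 4 lower (ESRP1, ESRP2, RBFOX2 and MBNL3), against 21.5% and 19.8%. By the study's own limit of over 5-fold and an adjusted p under 1e-05, 0 members passed in A549 in either direction, where 1.17% of all genes were higher and 0.736% lower. ESRP1, ESRP2 and MBNL3 passed as lower in HCC827, where 1.63% of all genes did so and 1.32% were higher. ESRP1 and ESRP2 passed as lower in NCI-H358, where 1.36% of all genes did so and 0.811% were higher. At an unadjusted p under 0.05, 3916 of all 19849 genes were higher in A549 and 4849 in NCI-H358. Shares of all genes by the unmoderated test are not given here. The members are few and were gathered with earlier results of these data known, so these counts describe them only.

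The order of levels over the 6 groups differed between members. ESRP1 was highest in the parental cells of HCC827 (12.19 ± 0.14, SD, n = 3) and of NCI-H358 (12.06 ± 0.04, SD, n = 3), which did not differ beyond their spread (limma adjusted p = 0.376). Mesenchymal HCC827 (7.24 ± 0.25, SD, n = 3) and mesenchymal NCI-H358 cells (4.86 ± 0.08, SD, n = 3) followed, and A549 cells of either state were lowest. Mesenchymal NCI-H358 cells still held 1.29 log2 units more ESRP1 signal than mesenchymal A549 cells (limma adjusted p = 2.46e-08), and mesenchymal HCC827 cells 3.67 more (adjusted p = 2.98e-14). ESRP2 had the same order, with parental HCC827 above parental NCI-H358 cells by 1.38 (limma adjusted p = 3.18e-06). MBNL3 was at 8.94 ± 0.16 (SD, n = 3) in NCI-H358 parental and 8.81 ± 0.15 (SD, n = 3) in parental HCC827 cells (limma adjusted p of the difference = 0.525), then at 7.92 ± 0.09 (SD, n = 3) in mesenchymal NCI-H358 and 5.47 ± 0.37 (SD, n = 3) in mesenchymal HCC827 cells. RBFOX2 was highest in mesenchymal and then parental HCC827 cells, and mesenchymal NCI-H358 and A549 cells did not differ beyond their spread (0.099, limma adjusted p = 0.345).

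Between parental lines, ESRP1 was 8.66 log2 units higher in HCC827 than in A549 and 8.53 higher in NCI-H358 than in A549 (limma adjusted p = 8.06e-19 and 7.86e-19). The corresponding differences were 5.59 and 4.20 for ESRP2 and 5.56 and 5.69 for MBNL3 (limma adjusted p at most 1.22e-12). The parental A549 levels of these 3 genes (3.53, 3.68 and 3.25) were below that of CDH5 (4.25), a gene these cells should lack, and were not shown to be above background, so that the differences from A549 may be understated. QKI, as a description, was 3.53 and 4.80 lower, and its level in parental NCI-H358 cells (3.96) was also below that of CDH5 there (4.25). Of all genes, 57.1% differed between parental HCC827 and A549 cells, 57.9% between parental NCI-H358 and A549 cells and 52.6% between parental NCI-H358 and HCC827 cells. The shares between the mesenchymal derivatives were 56.6%, 58.8% and 52.6%. ZEB1 was at 9.33 in parental A549 cells, against 6.02 and 6.13 in the parental cells of HCC827 and NCI-H358. After EMT it was at 10.12, 10.20 and 9.79, having risen by 0.79, 4.18 and 3.66 (limma adjusted p = 2.52e-05, 1.45e-14 and 1.20e-13). ZEB2, its paralogue, fell by 0.46 in A549 and rose elsewhere, by 5.32 in HCC827 and by 2.20 in NCI-H358 cells (limma adjusted p = 0.00325, 7.16e-16 and 5.60e-11). SNAI2 rose by 3.71 in A549 and by 1.26 and 1.13 in the other lines (limma adjusted p = 3.89e-10, 0.000123 and 0.000415). The part of these repressors in the levels of the splicing regulators was not tested.

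**Figure D3:**
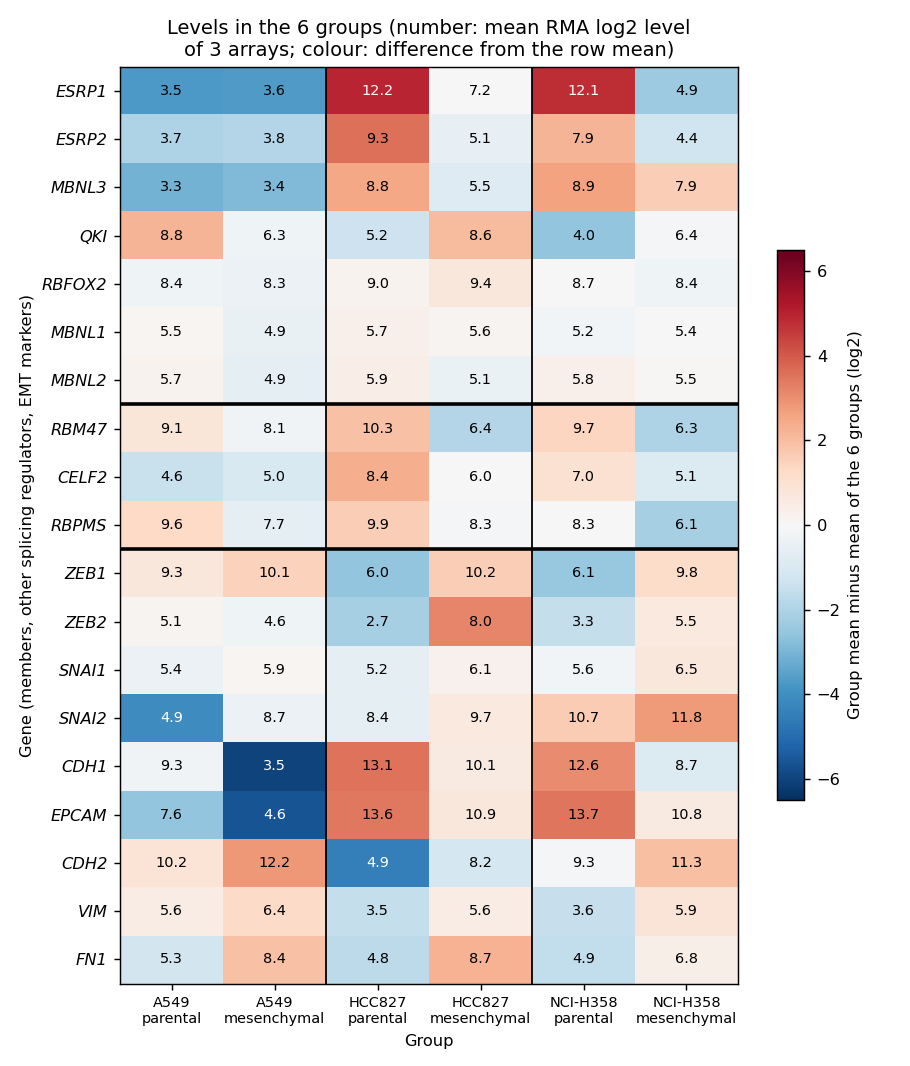
Mean log2 levels of the 7 members, 3 other splicing regulators and 9 EMT markers (rows) in the 6 groups (columns), printed as numbers. The colour shows each mean minus the mean of the 6 groups of that gene, so colours compare groups within a row and not genes. ESRP1, ESRP2 and MBNL3 were below their means in both A549 groups, where ZEB1 was at 9.33 and 10.12.

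Genes with levels most like those of each member were found as the root mean square difference over the 18 arrays, after subtraction of each gene's own mean. The arrays share 3 lines and 2 states, and the values are a description. Nearest to ESRP2 were ST14 (0.262 log2 units), which encodes the epithelial protease matriptase, GRHL2 (0.401), an epithelial transcription factor, CLDN7 (0.43), a tight junction claudin, DAPP1 (0.522) and PLAAT4 (0.562). Nearest to ESRP1 were MAL2 (0.98), TMEM30B (1.1), ERP27 (1.17), MPZL2 (1.2) and GALNT3 (1.27), at larger distances on the wider range of ESRP1 (8.66 log2 units between group means). Nearest to MBNL3 were SLC16A7 (0.478), ENPP5 (0.489) and ANK3 (0.536). For QKI the nearest genes were EPB41L5 (0.838), OLFML3 (0.863), ALDH1L2 (0.865), LOC100287387 (0.885) and PCOLCE2 (0.924). QKI had a range of 4.80 log2 units, beside 5.59 for ESRP2. It was chosen for changes in opposite directions on these same arrays, so its larger distances are not a separate result. In A549, HCC827 and NCI-H358 cells OLFML3 had log2 fold changes of -1.53, 2.10 and 0.77, and EPB41L5, a cytoskeletal adaptor, had -0.32, 2.01 and 1.55.

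Other RNA-binding regulators of splicing were examined as a list. Of 52 such genes, 7 were higher and 13 lower in A549, 10 higher and 10 lower in HCC827 and 9 higher and 8 lower in NCI-H358 cells by limma, with median log2 fold changes of -0.080, 0.064 and -0.016 beside -0.021, 0.0051 and 0.015 over all genes. These shares were 13.5% and 25% for A549, 19.2% and 19.2% for HCC827, and 17.3% and 15.4% for NCI-H358, near those over all genes (16.6% and 26.8%, 20.8% and 25%, and 21.5% and 19.8%). RBM47, an RNA-binding protein abundant in epithelia, fell by 3.83 in HCC827 and 3.42 in NCI-H358 cells (limma adjusted p = 1.99e-16 and 1.41e-15) and was 2-fold lower in mesenchymal A549 cells (adjusted p = 5.75e-09). CELF2, of the CELF family that opposes muscleblind proteins at shared exons, fell by 2.35 in HCC827 and 1.87 in NCI-H358 cells (limma adjusted p = 1.59e-10 and 3.94e-09) and rose by 0.43 in A549 cells (adjusted p = 0.0153). These were the 2 genes of the list that passed the study's limit of 5-fold in some line. Of all 19849 genes, 1071 passed it in at least 1 line. RBPMS, a splicing regulator of smooth muscle, fell in all 3 lines, by 1.92, 1.63 and 2.20 (limma adjusted p at most 4.39e-11). The highest mean log2 fold changes of this list were those of ELAVL2 (0.54), EWSR1 (0.52) and RBM24 (0.51), and EWSR1 rose in all 3 lines.

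**Figure D4:**
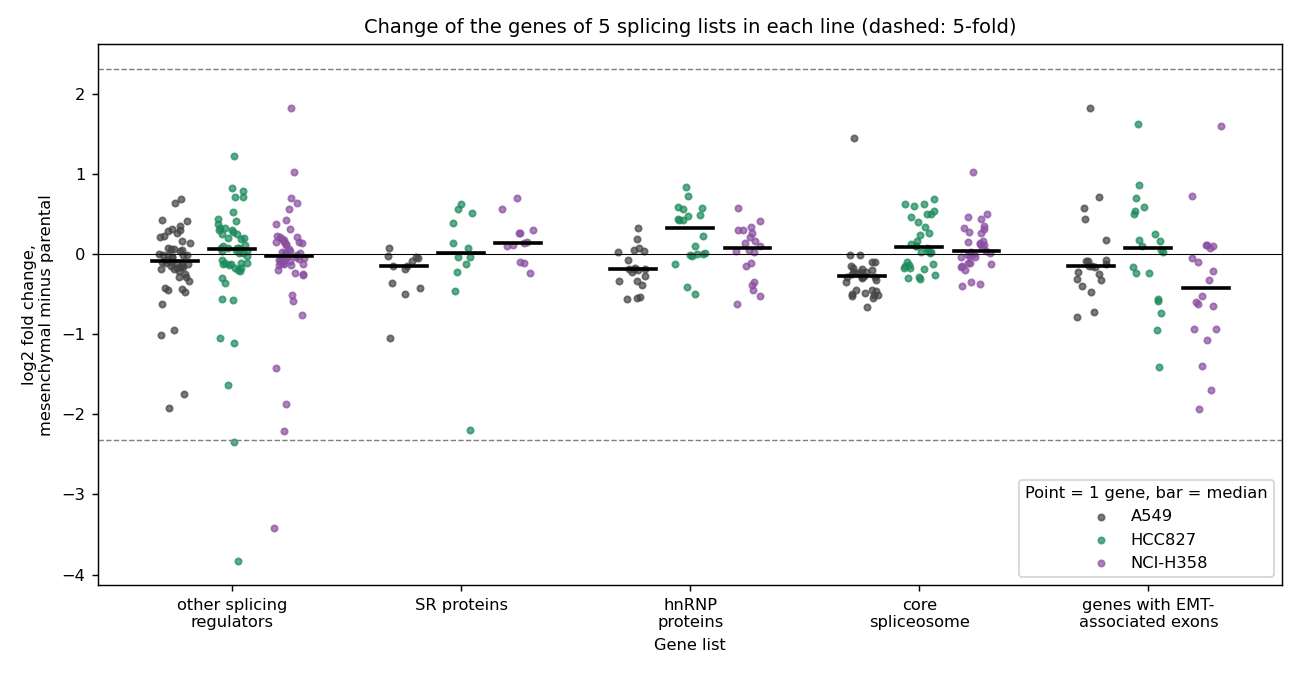
Log2 fold change, mesenchymal minus parental (y axis), of each gene of 5 lists (x axis) in A549 (grey), HCC827 (green) and NCI-H358 (purple). Each point is 1 gene, black bars are medians and dashed lines mark 5-fold. The points beyond 5-fold are RBM47 in HCC827 and NCI-H358 and CELF2 in HCC827.

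General splicing factors were read against the same shares over all genes. Of 12 SR proteins, which bind exonic enhancers, limma called 0 higher and 5 lower in A549 cells. HCC827 cells had 4 higher and 3 lower, and NCI-H358 cells 5 higher and 0 lower. At an unadjusted p under 0.05 the 2 counts of 0 were 0 as well, and a separate fit per line called 1 lower in NCI-H358. The SR shares were 0% and 41.7%, 33.3% and 25%, and 41.7% and 0%, in the same order of lines. The largest change was that of SRSF12, which fell by 2.19 in HCC827 and 1.04 in A549 cells (limma adjusted p = 7.89e-11 and 1.41e-06), and SRSF11 had the highest mean log2 fold change, 0.29. Of 20 hnRNP proteins, which often favour skipping, 1 was higher and 9 lower in A549, 11 higher and 2 lower in HCC827 and 7 higher and 4 lower in NCI-H358 cells. The hnRNP shares were 5% higher and 45% lower in A549 (16.6% and 26.8% of all genes), 55% and 10% in HCC827 (20.8% and 25%) and 35% and 20% in NCI-H358 (21.5% and 19.8%). Among them HNRNPF fell in all 3 lines by 0.39 to 0.51, and HNRNPDL rose by 0.84 in HCC827 and 0.34 in NCI-H358 cells (limma adjusted p = 2.52e-05 and 0.0378). Of 32 genes of the core spliceosome, 1 was higher and 24 lower in A549 cells, with a median log2 fold change of -0.27. This is 75% lower, beside 26.8% of all genes. With arrays centred on their medians 15 were lower, and the share of all genes under centring is not given here. HCC827 cells had 12 higher and 6 lower, and NCI-H358 cells had 9 higher and 4 lower (2 lower with centred arrays), which is 37.5% and 18.8%, and 28.1% and 12.5%. SNRPA1 and SNRPA, of the U2 and U1 particles, fell in all 3 lines by 0.28 to 0.51. None of the genes of these 3 lists passed the study's limit of 5-fold in any line. That limit was passed in at least 1 line by 1071 of all 19849 genes.

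Genes known for exons that switch in EMT were examined for their total RNA. Of 20 such genes, 4 were higher and 7 lower in A549, 8 higher and 6 lower in HCC827 and 2 higher and 11 lower in NCI-H358 cells by limma. None changed over 5-fold, and 1071 of all 19849 genes passed the study's limit in at least 1 line. The median log2 fold change of the 20 genes was -0.15, 0.083 and -0.42. The 55% that were lower in NCI-H358 stood beside 19.8% of all genes, the 20% and 35% in A549 beside 16.6% and 26.8%, and the 40% and 30% in HCC827 beside 20.8% and 25%. ENAH, an actin regulator whose epithelial exon depends on ESRP proteins, rose by 1.62 in HCC827 and 1.61 in NCI-H358 cells (limma adjusted p = 4.47e-11 and 6.48e-11) and had a log2 fold change of 0.18 in A549 cells (adjusted p = 0.0931). CTNND1, the catenin p120 that holds E-cadherin at junctions, fell by 0.32, 1.40 and 1.07 in A549, HCC827 and NCI-H358 cells (limma adjusted p = 0.00208, 7.52e-11 and 3.05e-09). FGFR2, whose IIIb form is epithelial, fell in HCC827 and NCI-H358 cells, with log2 changes of -0.73 and -1.69 respectively (limma adjusted p = 0.000156 and 1.11e-08) and rose by 0.45 in A549 cells (adjusted p = 0.0104). RALGPS2 fell in all 3 lines by 0.59 to 1.93, and MAP3K7, the TGFβ-activated kinase, rose by 0.86 in HCC827 and 0.73 in NCI-H358 cells and fell by 0.24 in A549 cells (limma adjusted p at most 0.0309). PLEKHA1 rose by 0.72 in A549 and 0.54 in HCC827 cells (limma adjusted p at most 1.71e-05). Exon use itself was not read by these values.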

How the data were processed

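RNA of 18 samples was hybridized to Affymetrix U133 Plus 2.0 arrays. The deposited log2 values came from RMA run by the authors, with 19849 genes read by 1 probe set each. How the probe set was chosen was not given in the sources used here. Array columns were matched to samples by title, and genes to current symbols through NCBI RefSeq by gene ID (19326 of 19849). limma 3.58.1 in R 4.3.3 (lmFit, eBayes) was fitted to all 18 arrays with 6 groups and no covariate, with Benjamini-Hochberg adjustment over all genes in each contrast. The call was an adjusted p under 0.05. The study's rule (over 5-fold, adjusted p under 1e-05) was a second rule. No filter on low values was used. The number of arrays limits the precision, and an exact permutation test of 3 against 3 could not go below a two-sided p of 0.1. The steps were tested on simulated data.

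The members, gene lists and tests were chosen with earlier results of these data known. Genes to name were drawn by rule: the members, markers, genes past the study's rule, the 3 highest and 3 lowest mean changes of each list, and the nearest genes by level. Of the SR, hnRNP and core spliceosome lists, not every gene that met the rule is named. Motifs were searched with Python 3.11.15. Alternatives were a separate fit per line, an intensity trend, a filter on probe sets under a log2 level of 5 in all groups, an ordinary Student's t-test per gene on the groups compared alone, called the unmoderated test (the study analysed its arrays with limma), arrays centred on their medians, other call rules, and each array left out.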

Additional observations from a re-analysis of the deposited data

Results flagged for a closer look

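The change from parental to mesenchymal cells differed between HCC827 and A549 for 4 of the 6 tested members, between NCI-H358 and A549 for 4 and between NCI-H358 and HCC827 for 3, by limma's test of the difference in change on the log2 scale, beside 42.2%, 42.8% and 37.9% of all genes. The values were -4.99 (HCC827 minus A549), -7.24 (NCI-H358 minus A549) and -2.25 (NCI-H358 minus HCC827) for ESRP1. They were -4.21 (HCC827 minus A549) and -3.59 (NCI-H358 minus A549) for ESRP2. MBNL3 differed in all pairs, with -3.53 (HCC827 minus A549), -1.21 (NCI-H358 minus A549) and 2.32 (NCI-H358 minus HCC827). For these 3 genes the parental A549 levels lay at percentiles 7.58 to 12.8 of all genes. From such levels falls as large as those in HCC827 could not be read, and the part of this low level in the differences was not tested. RBFOX2 differed by 0.563 (HCC827 minus A549) and -0.702 (NCI-H358 minus HCC827), and MBNL1 by 0.826 (NCI-H358 minus A549). QKI was lower on every mesenchymal A549 array and higher on every mesenchymal array of the other lines, with differences in change of 5.88 (HCC827 minus A549) and 4.97 (NCI-H358 minus A549). This difference was not tested, because it chose the gene.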

How the results depend on the processing

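No paired analysis was possible because the sample titles carry no replicate numbers shared between groups. The falls of ESRP1, ESRP2 and MBNL3 in HCC827 and NCI-H358 passed under every alternative fit (other call rules aside), and with 1 array left out they stayed at -7.23 to -7.16 for ESRP1 in NCI-H358 and at -1.09 to -0.93 for MBNL3 there. QKI with 1 array left out ranged from -2.59 to -2.39 in A549, 3.27 to 3.45 in HCC827 and 2.38 to 2.60 in NCI-H358. These ranges are a description, because the same arrays chose the gene. The fall of RBFOX2 in NCI-H358 lost its call with centred arrays (-0.20) and by the unmoderated test (-0.24), and ranged from -0.28 to -0.21 with 1 array left out, losing its call without NCI-H358 parental replicate 2 or 3 or mesenchymal replicate 1 or 2. By the unmoderated test MBNL1 (-0.62) and MBNL2 (-0.84) lost their calls in A549, leaving 0 lower members there. The difference of ESRP2 between NCI-H358 and HCC827 passed with an intensity trend (0.62). With 1 array left out, values that missed the threshold with all arrays ranged from -0.065 to 0.098 for ESRP1 and from -0.10 to 0.21 for ESRP2 in A549, and differences in change ranged from 0.51 to 0.83 for ESRP2 (NCI-H358 minus HCC827), 0.35 to 0.58 for MBNL1 (HCC827 minus A549), -0.21 to 0.15 for MBNL2 (HCC827 minus A549), 0.36 to 0.71 for MBNL2 (NCI-H358 minus A549) and 0.41 to 0.70 for MBNL2 (NCI-H358 minus HCC827). Of these, the ESRP2 and MBNL1 differences each passed in 3 such fits, and those of MBNL2 between NCI-H358 and A549 and between NCI-H358 and HCC827 in 2 each. Over 2-fold, 0 members were lower in A549 and 0 higher in HCC827. Over 5-fold these counts were 0 and 0, and 2 were lower in NCI-H358. By the unmoderated test, higher counts were 3 SR proteins in NCI-H358 (5 by limma), 6 hnRNP (11) and 6 core spliceosome genes (12) in HCC827. A separate fit per line gave 1 SR protein lower in NCI-H358 (0) and 3 core genes lower in HCC827 (6), and centring gave 15 core genes lower in A549 (24) and 2 in NCI-H358 (4). Without A549 parental or mesenchymal replicate 3, 3 or 4 other regulators were higher in A549 (7), and without mesenchymal replicate 1, 5 hnRNP genes were lower there (9). The 1 hnRNP gene higher in A549 was lost without any A549 array, HCC827 mesenchymal replicate 2 or NCI-H358 mesenchymal replicate 1. In NCI-H358, 4 hnRNP genes were higher (7) without parental replicate 1 or 2 or any mesenchymal array, 3 SR proteins were higher (5) without parental replicate 3 or mesenchymal replicate 1 or 2, and 2 core genes were lower (4) without parental replicate 1. Over 2-fold, 27 of the 30 list counts moved by over 1.5 times, to at most 5 genes. The shares of all genes called under these settings are not given here, the 5-fold rule aside. These counts are therefore not read as results about the members or lists. The causes were not tested.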

Other observations

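The following 3 genes of the lists were chosen after their values were seen. RBM24, a regulator of muscle and heart splicing, was at a mean log2 level of 9.94, 5.83 and 3.84 in the parental cells of A549, HCC827 and NCI-H358, and it rose by 1.83 in NCI-H358 cells upon EMT (limma adjusted p = 1.28e-06). ELAVL2, a neuronal RNA-binding protein, was at 7.51 in parental NCI-H358 cells and at 3.74 and 4.15 in parental A549 and HCC827 cells. SNRPN, an imprinted gene of the core spliceosome list, was at 2.80 and 2.83 in parental and mesenchymal HCC827 cells, and rose by 1.45 in A549 and 1.02 in NCI-H358 cells (limma adjusted p = 5.10e-08 and 3.22e-06).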
